A study of Mus musculus with 21 samples.

Results

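The genes of MHC class II antigen presentation were followed through 21 bulk RNA-seq libraries of mouse Paneth cells. They were 7 rows of the deposited counts table, H2-Aa, H2-Ab1, H2-Eb1, H2-DMa, H2-DMb1, Cd74 and Ciita, listed by gene symbol with earlier results of these data known, and with no cut on a measured value. The table holds 55414 gene identifiers, of which 13070 passed a filter on low counts, and all 7 of these genes passed it. Paneth cells were sorted by flow cytometry from the small intestine, and the study's methods name C57BL/6J as the mouse strain and a gate on CD24+ c-Kit+ cells that lack CD31, CD45 and TER119. The mice drank purified (Milli-Q) water or zinc sulfate water for 7 weeks, at 200 mM as the labels put it. Each water was given to specific pathogen free (SPF) mice, to SPF mice that received broad-spectrum antibiotics over the last 3 weeks, and to germ-free mice, which carry no microbes. SPF mice gave 3 libraries per water, antibiotics-treated mice 4 per water, and germ-free mice 3 on Milli-Q and 4 on zinc water. The antibiotics used, the ages and the sex of each mouse are not stated in the labels or methods, and the study's methods describe its samples as cells of individual mice.

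MHC class II molecules show peptides from engulfed or internalised proteins to CD4+ T cells. The invariant chain Cd74 fills the groove of a new class II molecule and steers it to endosomes, where cathepsins trim the chain and H2-DM exchanges its last fragment for a peptide. The whole set is switched on by Ciita, a coactivator that does not bind DNA itself but docks on factors sitting on a shared promoter element. Dendritic cells, macrophages and B cells express the set constantly, while epithelial cells of the gut express it when induced, classically by interferon gamma and in step with the microbes present.

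Library totals ran from 9888174 to 16896714 counts with a median of 12936001. Genes outside the set were read as a check of the labels. Reg3g, an antimicrobial lectin that depends on microbes, stood at 377 to 508 CPM (counts scaled to a common library size) in the SPF Milli-Q group and at 15.9 to 68.8 CPM after antibiotics and in germ-free mice on that water. The zinc-binding metallothionein Mt2 rose on zinc water in each context, by 4.39 to 5.87 on the log2 scale. The Paneth marker Lyz1 held 1219576 to 2385164 counts in every library. The scaling used TMM (trimmed mean of M-values) factors. Replicate 2 of SPF mice on Milli-Q water stood apart from its group, with 52311 counts of the goblet cell mucin Muc2 (8920 and 19068 in the other libraries of the group) and 141 of the macrophage gene C1qa, yet 0 of its partner C1qb. Replicate 3 of germ-free mice on Milli-Q water stood apart for the class II genes themselves. Results that rest on this pair of libraries are given with and without them.

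The class II genes shared one pattern. They were high in all 4 libraries of antibiotics-treated mice on Milli-Q water, low in most libraries of SPF and germ-free mice, and spread over a wide range in antibiotics-treated mice on zinc water. Summed over the 7 genes, antibiotics libraries on Milli-Q water held 8507 to 10842 counts. SPF libraries on Milli-Q water held 324 to 2242 counts, and germ-free libraries on that water held 168, 282 and 3143. In antibiotics-treated mice on zinc water the sums were 2499, 686, 109 and 7032, so that the lowest library of the whole series and one near the highest fell in a single group.

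**Figure D1:**
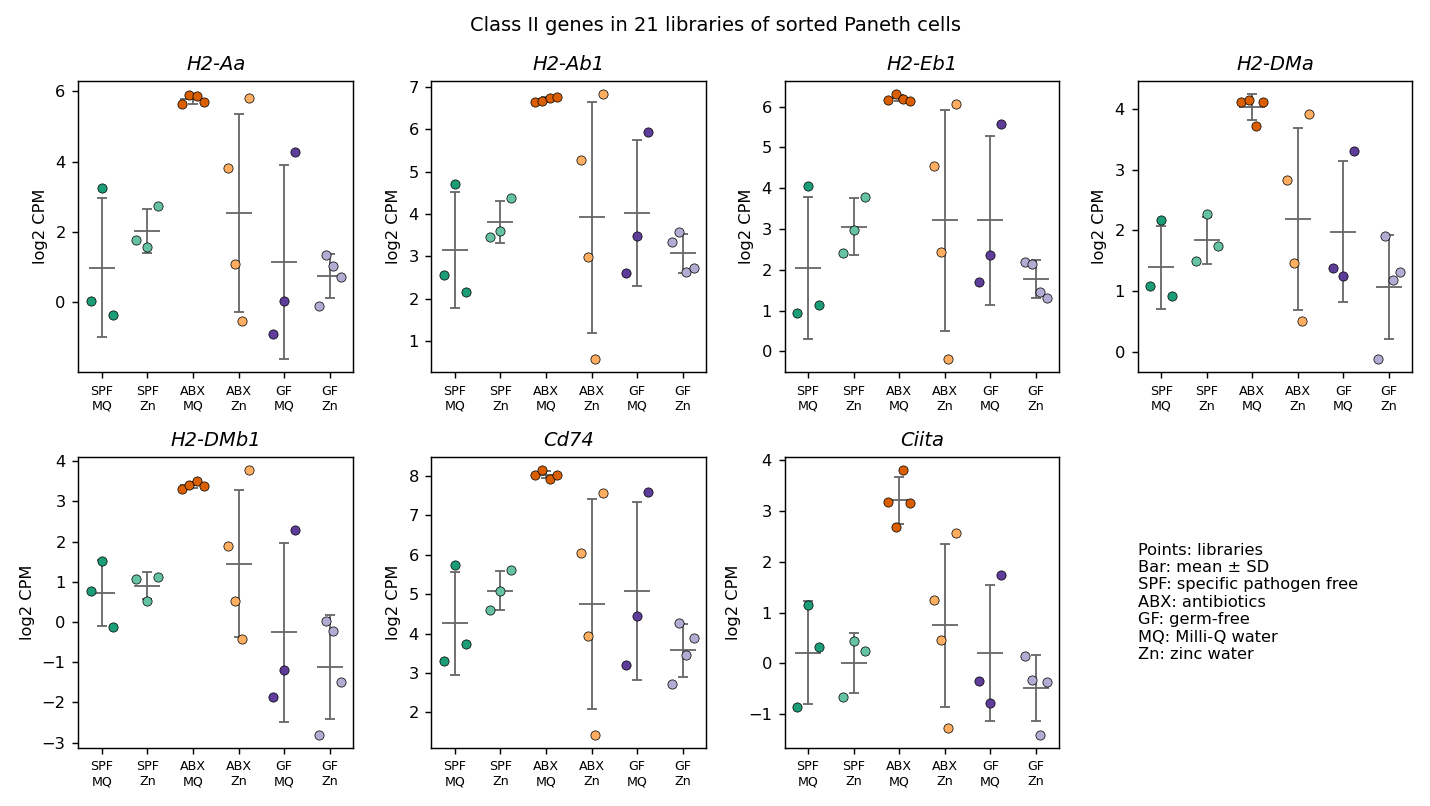
Log2 CPM of each of the 7 class II genes (vertical axes, prior count of 2) in the 21 libraries, arranged by group (horizontal axes), where points are libraries and bars the mean and SD of the group (n = 3 or 4). For every gene the 4 antibiotics libraries on Milli-Q water lie close together at the top, and the 4 antibiotics libraries on zinc water spread from that level downwards, replicate 3 lying near the bottom.

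The peptide-binding chains come first. H2-Aa (ENSMUSG00000036594, the α chain of I-A) lies on the minus strand of chromosome 17 at 34493404 to 34506798 in GRCm39. It stood at 49.4, 59.9, 58.9 and 52.0 CPM in antibiotics mice on Milli-Q water, and at 0.886, 9.29 and 0.629 CPM in SPF mice on that water. On zinc water it stood at 14.1, 1.95, 0.539 and 55.7 CPM after antibiotics and at 3.26, 2.84 and 6.48 CPM in SPF mice. Germ-free mice showed 0.389, 0.888 and 19.3 CPM on Milli-Q water and 0.775, 2.40, 1.89 and 1.49 CPM on zinc water. Each antibiotics library on Milli-Q water was thus above each SPF and germ-free library, while replicate 4 of the antibiotics mice on zinc water reached the same level and replicate 3 of that group fell to the level of germ-free mice.

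H2-Ab1 (ENSMUSG00000073421, the β chain of I-A, chromosome 17, 34476663 to 34488393) had the narrowest range of the 7 genes in antibiotics mice on Milli-Q water. It lay between 100 and 109 CPM in the 4 antibiotics libraries on Milli-Q water, where the highest was 1.09 times the lowest. In antibiotics mice on zinc water it ran from 1.35 to 114 CPM, an 84.3-fold range. H2-Eb1 (ENSMUSG00000060586, the β chain of I-E, chromosome 17, 34504236 to 34535648) ran from 70.0 to 78.6 CPM in the first of these groups and from 0.741 to 66.5 CPM in the second. H2-Aa and H2-Eb1 overlap on opposite strands. The sources do not state a strand setting for the counting, so reads of this pair may not be fully separated.

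Cd74 (ENSMUSG00000024610, the invariant chain, chromosome 18, 60936899 to 60945731) had the highest mean TPM of the 7, the length-scaled unit given further on, in each of the 6 groups. In CPM it stood at 259, 283, 243 and 260 CPM in antibiotics mice on Milli-Q water and at 66.2, 15.2, 2.56 and 189 CPM in antibiotics mice on zinc water. SPF mice showed 9.68, 53.4 and 13.2 CPM on Milli-Q water and 24.1, 33.6 and 48.4 CPM on zinc water. In germ-free mice the values were 9.07, 21.8 and 191 CPM on Milli-Q water and 6.39, 19.2, 10.9 and 14.7 CPM on zinc water. Here the antibiotics group on Milli-Q water overlapped no other group, and the 3 SPF libraries on zinc water all lay above the 4 germ-free libraries on zinc water.

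The peptide editor H2-DM is built from H2-DMa (ENSMUSG00000037649, chromosome 17, 34338515 to 34358958) and H2-DMb1 (ENSMUSG00000079547, chromosome 17, 34372046 to 34379204). In antibiotics mice on Milli-Q water both were below the chains they act on in TPM. In CPM, H2-DMa stood at 17.4, 17.8, 13.1 and 17.3 CPM in antibiotics mice on Milli-Q water, against 1.74 to 4.39 CPM in SPF mice on that water. H2-DMb1 stood at 9.77 to 11.2 CPM and at 0.774 to 2.71 CPM in the same groups. In germ-free mice H2-DMb1 was close to the detection limit, with 1, 2 and 44 counts on Milli-Q water and 0, 8, 6 and 2 counts on zinc water. Only 76.6% of its 60-base stretches are unique, the others being shared with H2-DMb2, which had 0 counts in every library. H2-DMa lies opposite Brd2 and other genes.

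Ciita (ENSMUSG00000022504, the class II transactivator, chromosome 16, 10297923 to 10347694, opposite Dexi) had the lowest mean TPM of the 7 in each of the 6 groups. In CPM it stood at 8.91, 6.30, 13.9 and 8.76 CPM in antibiotics mice on Milli-Q water and at 2.23, 1.23, 0.270 and 5.75 CPM in antibiotics mice on zinc water, with no overlap between the groups. SPF mice showed 0.409, 2.09 and 1.11 CPM on Milli-Q water and 0.489, 1.21 and 1.04 CPM on zinc water. Germ-free mice showed 0.648, 0.444 and 3.21 CPM on Milli-Q water and 0.236 to 0.968 CPM on zinc water, from 2 to 6 counts a library.

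Levels can be compared between genes only per length. In TPM, which divides counts by the length of the longest annotated transcript before scaling, antibiotics mice on Milli-Q water held 197 ± 33.7 for Cd74, 101 ± 15.3 for H2-Ab1, 58.1 ± 8.32 for H2-Eb1 and 23.9 ± 1.89 for H2-Aa (SD, n = 4 each). H2-DMa stood at 11.3 ± 2.85, H2-DMb1 at 10.5 ± 1.25 and Ciita at 1.71 ± 0.523 TPM (SD, n = 4 each). The invariant chain was thus the highest and the transactivator the lowest. The gap between the I-A chains depends on the lengths taken, 3223 bases for H2-Aa and 1462 for H2-Ab1. In CPM their means in antibiotics mice on Milli-Q water were 55.0 and 105. Other members of the family were absent or nearly so. H2-Oa, H2-Ob, H2-Eb2, H2-Ea and H2-DMb2 had at most 4 counts in any library, and none passed the filter. C57BL/6 mice carry a defect in the H2-Ea promoter and do not make the I-E α chain.

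For all 7 genes the antibiotics group on Milli-Q water ranked first by mean log2 CPM, and its gap to the next group was larger than the SD of either. Below it, the order of the other 5 groups differed between genes, and no neighbouring pair in that order was further apart than the larger of their SDs. For Cd74 the group means were 8.03 ± 0.09 in antibiotics mice on Milli-Q water (SD, n = 4), then 5.09 ± 0.50 in the SPF zinc group (SD, n = 3) and 5.08 ± 2.25 in the germ-free Milli-Q group (SD, n = 3). Below them came 4.75 ± 2.66 in the antibiotics zinc group (SD, n = 4), 4.26 ± 1.30 in the SPF Milli-Q group (SD, n = 3) and 3.58 ± 0.67 in the germ-free zinc group (SD, n = 4).

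Genes of the pathway share a promoter element in textbook accounts, in which an X box bound by RFX and a Y box bound by NF-Y sit a few helical turns apart. Promoter windows of 300 bases around RefSeq starts (GRCm38.p6) were available for H2-Aa, H2-Eb1, H2-DMb1 and H2-DMa, and each was matched letter for letter to GRCm39. A GNAACT motif followed by TGATTGG with 10 to 40 bases between was found in the windows of H2-Aa, H2-Eb1 and H2-DMb1, with gaps of 25, 24 and 25 bases. The motif letters and the spacing were chosen after these windows had been read. Both strands were searched, and the pair occurred in 90 of 32851 promoter windows (0.274%), while GNAACT alone occurred in 42.8% and TGATTGG alone in 7.82%. Neither of the H2-DMa windows held the pair. The stretches of H2-Aa and H2-Eb1 are shown because these chains had the largest fold changes of the set between antibiotics and SPF mice on Milli-Q water. The capitals mark the motif pair.
H2-Aa, chr17:34506826-34506883, minus strand: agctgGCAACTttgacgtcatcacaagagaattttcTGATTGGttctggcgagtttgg
H2-Eb1, chr17:34524745-34524801, plus strand: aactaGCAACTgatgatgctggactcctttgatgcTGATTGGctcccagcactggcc
The H2-Aa stretch lies upstream of the gene, within an intron of the longest H2-Eb1 transcript on the opposite strand. The H2-Eb1 stretch lies upstream of its RefSeq start, within an intron of longer H2-Eb1 transcripts and of Gm20513. The H2-DMb1 pair (17, 34372066 to 34372123) lies within the first exon of its GENCODE transcript. H2-Ab1, Cd74 and Ciita were not in the promoter table.

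The first comparison set antibiotics-treated mice against SPF mice without antibiotics. Averaged over both waters, 6 of the 7 class II genes were higher after antibiotics than in SPF mice in edgeR's quasi-likelihood test, where 1.35% of all 13070 genes were called higher. H2-Aa rose by 3.00 ± 0.73 on the log2 scale (SE, edgeR adjusted p = 0.0226) and Ciita by 2.14 ± 0.47 (SE, 4.41-fold, edgeR adjusted p = 0.0119). H2-Eb1 rose by 2.42, H2-Ab1 by 2.29, H2-DMb1 by 2.03 and H2-DMa by 1.73, with edgeR adjusted p-values from 0.0191 to 0.0381. Cd74 missed the threshold at 2.15 ± 0.64 (SE, edgeR adjusted p = 0.0622). The median of the 7 genes was 2.15, against 0.001 over all genes tested. Reg3g went the other way in the same contrast and decreased by 3.72 ± 0.26 (SE).

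Leaving out one library at a time, Ciita stayed called in all 21 fits (edgeR adjusted p up to 0.0423), and the others did not. The H2-DMa call was lost without SPF zinc replicate 1 or 3 (adjusted p up to 0.0575). The H2-Aa call was lost without antibiotics zinc replicate 4, SPF Milli-Q replicate 1 or 3 or SPF zinc replicate 1 or 2 (adjusted p up to 0.07). The calls of H2-Ab1, H2-Eb1 and H2-DMb1 were lost in 10, 11 and 11 of the 21 fits that each left out a library, with adjusted p up to 0.103, 0.108 and 0.127. These were the fits without SPF Milli-Q replicate 1 or 3, any SPF zinc library, antibiotics zinc replicate 1 or 4, or an antibiotics Milli-Q library (any of the 4, save replicate 3 for H2-Ab1). Fewest genes, Ciita alone, were called without SPF zinc replicate 1, and 2 genes were called without antibiotics zinc replicate 4 (median 1.62). Without SPF Milli-Q replicate 2 and germ-free Milli-Q replicate 3, all 7 genes were called, at adjusted p-values of 0.00244 to 0.0153.

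On Milli-Q water alone, the 7 genes differed most between antibiotics and SPF mice, with fold changes from 6.01 for H2-DMa to 14.9 for H2-Aa and a median of 8.58. Every antibiotics library lay above every SPF library for all 7 genes, where 4.45% of all genes did so. No gene of the set passed the threshold in edgeR's test (0 of 7, with 0.0459% of all genes called higher), although all 7 had an unadjusted p under 0.05, of 0.000143 to 0.00218. The lowest edgeR adjusted p was 0.0666, for Ciita, whose log2 fold change was 2.93 ± 0.65 (SE). DESeq2 and limma-voom each called 2 genes, H2-DMa and Ciita. A fit of these 7 libraries by themselves called all 7 (adjusted p from 0.000946 to 0.0198), and the fit without the pair of libraries that stood apart called 4, which were H2-Aa, H2-Eb1, H2-DMa and Ciita. H2-DMa and Ciita were also called by edgeR without antibiotics zinc replicate 3 or 4 or germ-free Milli-Q replicate 3 (lowest adjusted p 0.0212, 0.0243 and 0.0358), and Ciita without germ-free zinc replicate 4 (0.0457), libraries that take no part in the contrast and act through the shared spread.

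On zinc water the same comparison gave log2 fold changes of 0.87 to 2.10 with a median of 1.42, and 0 of 7 genes passed in edgeR's test, where 4.76% of all genes were called higher. None reached an unadjusted p of 0.05, and DESeq2 and limma-voom called 0 as well. The ± 2 SE range over the 7 genes was -0.80 to 4.13. No gene had every antibiotics library above every SPF library on zinc water, as 14.5% of all genes did. Replicate 4 of the antibiotics mice on zinc water carried the median, which was 0.12 without it.

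**Figure D2:**
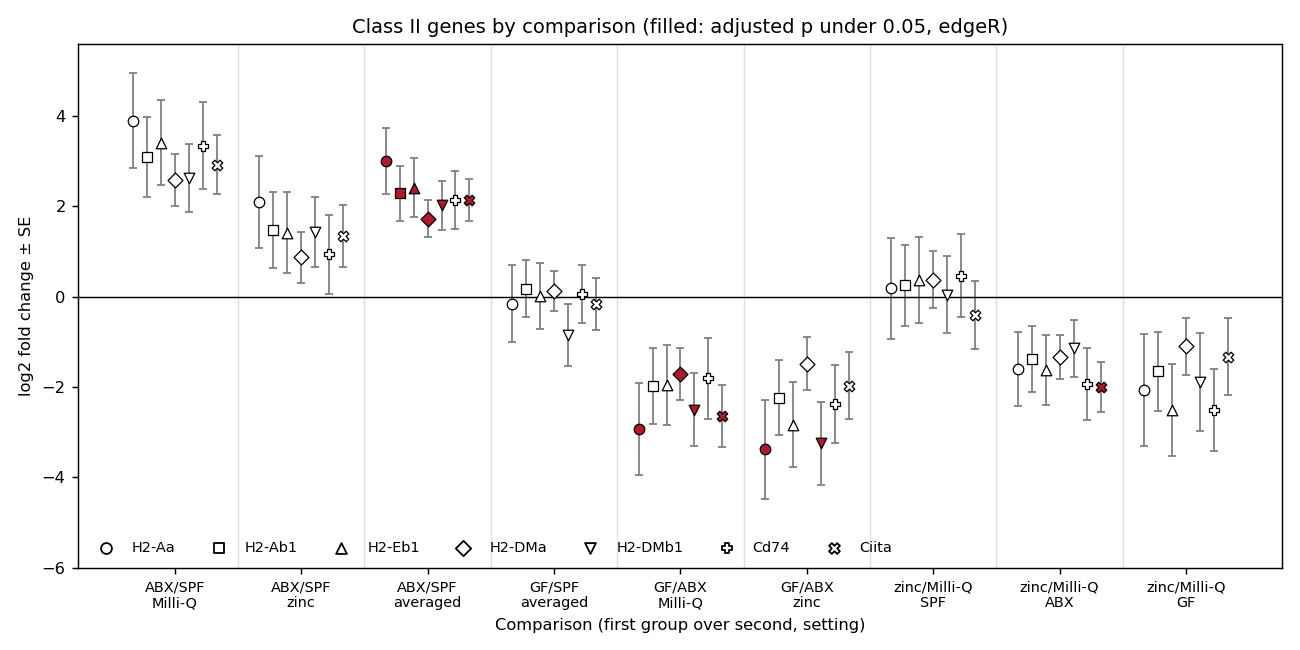
Log2 fold change (vertical axis) of the 7 class II genes in 9 comparisons (horizontal axis, the first group over the second), where symbols are genes, bars are SE and filled symbols passed an adjusted p of 0.05 in edgeR. All 7 genes lie above 0 for antibiotics over SPF on each water and below 0 for germ-free over antibiotics, while the average of germ-free over SPF lies near 0 for all but H2-DMb1 (-0.84).

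Germ-free mice did not share the high level. Averaged over both waters, their class II genes differed from SPF mice by -0.84 to 0.18 on the log2 scale with a median of 0.02, and 0 of 7 passed in edgeR's test, although 30.7% of all genes did (16.2% higher and 14.5% lower). None had an unadjusted p under 0.05, and DESeq2 and limma-voom called 0. The ± 2 SE range was -2.22 to 1.54. Without germ-free Milli-Q replicate 3 the median was -1.09 and H2-DMb1 was called (edgeR adjusted p = 0.0354), and without SPF Milli-Q replicate 2 as well it was -0.51 with 0 called. On Milli-Q water the median was 0.98, 0 of 7 were called where 24.2% of all genes were, and none had an unadjusted p under 0.05. The sign there depended on the pair of libraries that stood apart, since the median was -0.77 without germ-free replicate 3, 2.37 without SPF Milli-Q replicate 2 and 0.34 without both. No gene of the set had every SPF library above every germ-free library on this water, as 18.8% of all genes did. On zinc water the median was -1.29 with 0 of 7 called (5.85% of all genes), and again none reached an unadjusted p of 0.05. DESeq2 and limma-voom called 0 on each water. H2-Aa, H2-Eb1, H2-DMb1 and Cd74 were nonetheless lower in all 4 germ-free libraries than in all 3 SPF libraries on zinc water, a separation seen for 8.31% of all genes.

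Set against antibiotics mice on Milli-Q water, germ-free mice were lower for 4 of the 7 genes in edgeR's test, where 9.7% of all genes were lower. These were H2-Aa (-2.92 ± 1.02, SE), Ciita (-2.64 ± 0.68), H2-DMb1 (-2.50 ± 0.81) and H2-DMa (-1.71 ± 0.58), with edgeR adjusted p-values of 0.0416, 0.00793, 0.0296 and 0.0357. H2-Ab1, H2-Eb1 and Cd74 had log2 fold changes of -1.97, -1.95 and -1.81 and did not pass. All 7 genes were lower in each germ-free library than in each antibiotics library on this water, as were 15.4% of all genes. Without germ-free Milli-Q replicate 3 all 7 genes were called, and H2-Aa differed by -6.44 ± 1.56 (SE, edgeR adjusted p = 0.00815). Without germ-free Milli-Q replicate 2 none was called (Ciita had an edgeR adjusted p of 0.053), without replicate 1 of that group 1 gene was, and without any of the antibiotics Milli-Q libraries 2 genes were.

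On zinc water, 2 of the 7 genes were lower in germ-free than in antibiotics mice, where 6.09% of all genes were. H2-Aa differed by -3.38 ± 1.10 (log2, SE, edgeR adjusted p = 0.0434) and H2-DMb1 by -3.25 ± 0.91 (edgeR adjusted p = 0.0204). All 7 had an unadjusted p under 0.05, and the median was -2.38. The groups overlapped for each of the 7 genes, since replicate 3 of the antibiotics mice lay within or below the germ-free values, whereas 7.85% of all genes had every antibiotics library above. Without antibiotics zinc replicate 4 no gene was called (H2-Aa -1.70, edgeR adjusted p = 0.317), and without antibiotics zinc replicate 3 all 7 were. DESeq2 called 4 genes and limma-voom 0 (H2-DMb1 -1.93, adjusted p = 0.271), and in a fit of only the groups compared H2-Aa missed the threshold (edgeR adjusted p = 0.0582) while H2-DMb1 could not be fitted. The H2-Aa call was also lost without antibiotics zinc replicate 1, any germ-free zinc library or SPF zinc replicate 1, which left H2-DMb1 alone. Without antibiotics zinc replicate 2 or SPF Milli-Q replicate 2 there were 5 calls, and without germ-free Milli-Q replicate 3 there were 4. These comparisons share their antibiotics libraries with those of the preceding paragraphs.

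The next question was whether zinc water moved the set. After antibiotics, Ciita was lower on zinc than on Milli-Q water by 4.01-fold (SE of 0.55 on the log2 scale, edgeR adjusted p = 0.0138), the single gene of the 7 to be called lower, where 11.5% of all genes were. The other 6 genes had log2 fold changes from -1.94 for Cd74 to -1.14 for H2-DMb1, with edgeR adjusted p-values from 0.0525 for H2-DMa to 0.201. Every antibiotics library on Milli-Q water lay above every antibiotics library on zinc water for H2-Eb1, Cd74 and Ciita, a separation seen for 13.6% of all genes. Replicate 4 of the zinc group stood at the level of the Milli-Q group for most of these genes. Without it all 7 genes were called, from -3.31 ± 0.87 (SE) for H2-Aa to -2.17 ± 0.48 for H2-DMa, with edgeR adjusted p-values of 0.0053 to 0.024. The Ciita call was lost only without antibiotics Milli-Q replicate 3 (edgeR adjusted p = 0.0563). H2-DMa was called beside it when replicate 2 of the SPF Milli-Q group, replicate 1 or 4 of the germ-free zinc group, or replicate 2 or 3 of the germ-free Milli-Q group was left out, and limma-voom with quality weights called all 7.

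In SPF mice, zinc water left 0 of 7 genes called in edgeR's test (0.138% of all genes were), with log2 fold changes from -0.41 to 0.47 and a median of 0.25. None had an unadjusted p under 0.05, DESeq2 and limma-voom called 0, and the ± 2 SE range was -2.04 to 2.43. Without SPF Milli-Q replicate 2, the library with high Muc2 and C1qa, the median was 1.53, still with 0 genes called. In germ-free mice all 7 genes were below 0, from -2.51 for Cd74 to -1.10 for H2-DMa with a median of -1.89, and 0 of 7 passed in edgeR's test (11.4% of all genes did). H2-Eb1 and Cd74 had an unadjusted p under 0.05, and DESeq2 and limma-voom called 0. This median was 0.01 without germ-free Milli-Q replicate 3, so the difference rested on that library. Cd74 was called without antibiotics zinc replicate 3 or 4 (edgeR adjusted p = 0.0419 and 0.0497).

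The zinc effect after antibiotics minus that in SPF mice ranged from -2.41 for Cd74 to -1.19 for H2-DMb1 on the log2 scale. None of the 7 was called by edgeR's interaction test (0% of all genes), H2-DMa alone had an unadjusted p under 0.05, DESeq2 called 0 and limma-voom called H2-DMa and Cd74. The zinc effect in germ-free minus that in SPF mice had a median of -1.94 with 0 genes called (0% of all genes). Cd74 alone had an unadjusted p under 0.05 there, DESeq2 and limma-voom called 0, and the median was -0.25 without germ-free Milli-Q replicate 3. A difference in the zinc effect between contexts was thus not shown for these genes.

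Within groups, the class II genes were among the most variable transcripts of the series. The pooled within-group SD of log2 CPM was 1.81 for H2-Aa, the 8th highest of 13070 genes, 1.59 for H2-Eb1, 1.56 for Cd74, 1.49 for H2-Ab1 and 1.33 for H2-DMb1, against a median of 0.275 over all genes. Ciita (1.03) and H2-DMa (0.933) ranked 226 and 398. The genes varied together. Over the 21 pairs of genes, Pearson's r across 21 libraries ran from 0.822 (H2-DMb1 with Ciita) to 0.99 (H2-Ab1 with H2-Eb1) with a median of 0.928. After the group means were removed it still ran from 0.624 to 0.988 with a median of 0.9, so libraries of the same group that were high for one gene were high for the others. Libraries in the upper part of the range ranked alike, as antibiotics zinc replicate 1 was 7th for each of the 7 genes, germ-free Milli-Q replicate 3 was 5th or 6th and SPF Milli-Q replicate 2 was 8th or 9th. Lower down the ranks differed between genes, from 11 to 20 for SPF Milli-Q replicates 1 and 3 and from 13 to 21 for germ-free zinc replicate 1. These correlations are descriptions over libraries that share groups and depth.

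**Figure D3:**
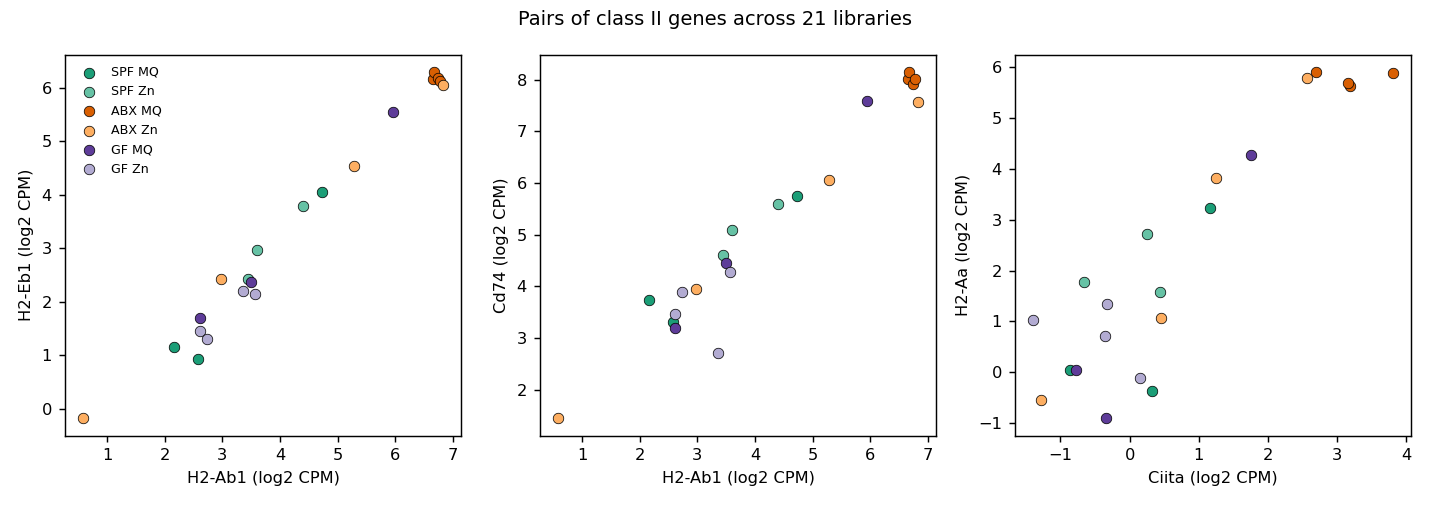
Log2 CPM of H2-Eb1 and Cd74 against H2-Ab1, and of H2-Aa against Ciita, where each point is 1 of 21 libraries coloured by group. Libraries rise together in each panel up to the antibiotics Milli-Q libraries at the top right, with antibiotics zinc replicate 3 lowest for H2-Ab1, H2-Eb1 and Cd74 and with more scatter for Ciita, which has few counts at its low end.

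Proportions within the set also differed between libraries, to an extent that depended on the gene. The CPM of H2-Eb1 was 0.306 to 0.772 times that of H2-Ab1 over the 21 libraries (median 0.586), and that of Cd74 was 0.635 to 3.11 times (median 2.04). The proportion ran wider for H2-Aa, from 0.0652 to 0.588 times H2-Ab1 (median 0.312), and for H2-DMa, from 0.0769 to 0.95 times (median 0.2). Few counts lie behind some of these ends. The lowest H2-Aa value came from 3 counts against 46 of H2-Ab1 in germ-free Milli-Q replicate 1. For H2-DMa the ends came from 4 counts against 52 in germ-free zinc replicate 1 and 19 against 20 in antibiotics zinc replicate 3. In antibiotics mice on Milli-Q water the H2-DMa proportion ran from 0.123 to 0.174. Over the same libraries the summed CPM of the set ran from 7.34 to 558.

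The gene most like the set outside the lists was Ifi47, an interferon-inducible GTPase. Its log2 CPM had an r of 0.788 with the mean standardised level of the 7 genes over 21 libraries, ahead of Rasa4 (0.75), Grk6 (0.714), Pde8b (0.696) and Kansl2 (0.693), among 9313 genes with a mean of at least 5 CPM. Ifi47 stood at 8.41 to 15.1 CPM in antibiotics mice on Milli-Q water and at 4.35 to 6.48 CPM in SPF mice on that water. Averaged over waters Ifi47 was higher after antibiotics by 0.95 ± 0.21 (log2, SE). It was picked for its likeness to the set over these same libraries, so this difference was favoured by the choice and is not a separate test. With group means removed, the genes close to the set included Vezt (0.794), Enox2 (0.77), Mettl26 (0.717) and Srp19 (0.717).

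Class I presentation is the sister pathway, which shows peptides made by the proteasome, and 11 of its genes were examined. Nlrc5, the class I counterpart of Ciita, held 79, 57, 116 and 51 counts in antibiotics mice on Milli-Q water, against 2, 6 and 5 in SPF mice on that water, 6, 8, 0 and 21 in antibiotics mice on zinc water and at most 11 in any other library. It rose by 4.02 ± 0.83 on the log2 scale after antibiotics on Milli-Q water (SE, edgeR adjusted p = 0.0359). It was the 1 gene of the 11 called, where 0.0459% of all genes were called higher. The median of the 11 was 0.40 there, against -0.007 for all genes. On zinc against Milli-Q water after antibiotics, 6 of the 11 fell, where 11.5% of all genes did. Nlrc5 decreased by 2.86 ± 0.68, the peptide transporter Tap2 by 1.28 ± 0.21 and the immunoproteasome subunit Psmb8 by 1.06 ± 0.32 (SE), with edgeR adjusted p-values of 0.00633, 0.00114 and 0.0219.

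Psmb8 and its neighbour Psmb9 tracked the class II genes most closely among the class I genes (r = 0.831 and 0.832 over 21 libraries), followed by Nlrc5 (0.815). The class I heavy chains differed, with an r of 0.579 for H2-D1 and 0.113 for H2-K1. With group means removed these were 0.713 and 0.311. Psmb8 stood at 26.1 to 30.4 CPM in antibiotics mice on Milli-Q water and at 26.9 CPM in antibiotics zinc replicate 4, and at 6.81 to 12.6 CPM in the other 3 libraries of that group. In germ-free against SPF mice, averaged, 4 of the 11 class I genes rose and 1 fell, where 16.2% of all genes rose and 14.5% fell. Among them H2-K1, a heavy chain, rose by 0.69 ± 0.12 (SE, edgeR adjusted p = 0.000158) where no class II gene was called. The heavy chain H2-D1 was not called there (0.22 ± 0.10, SE, edgeR adjusted p = 0.104).

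**Figure D4:**
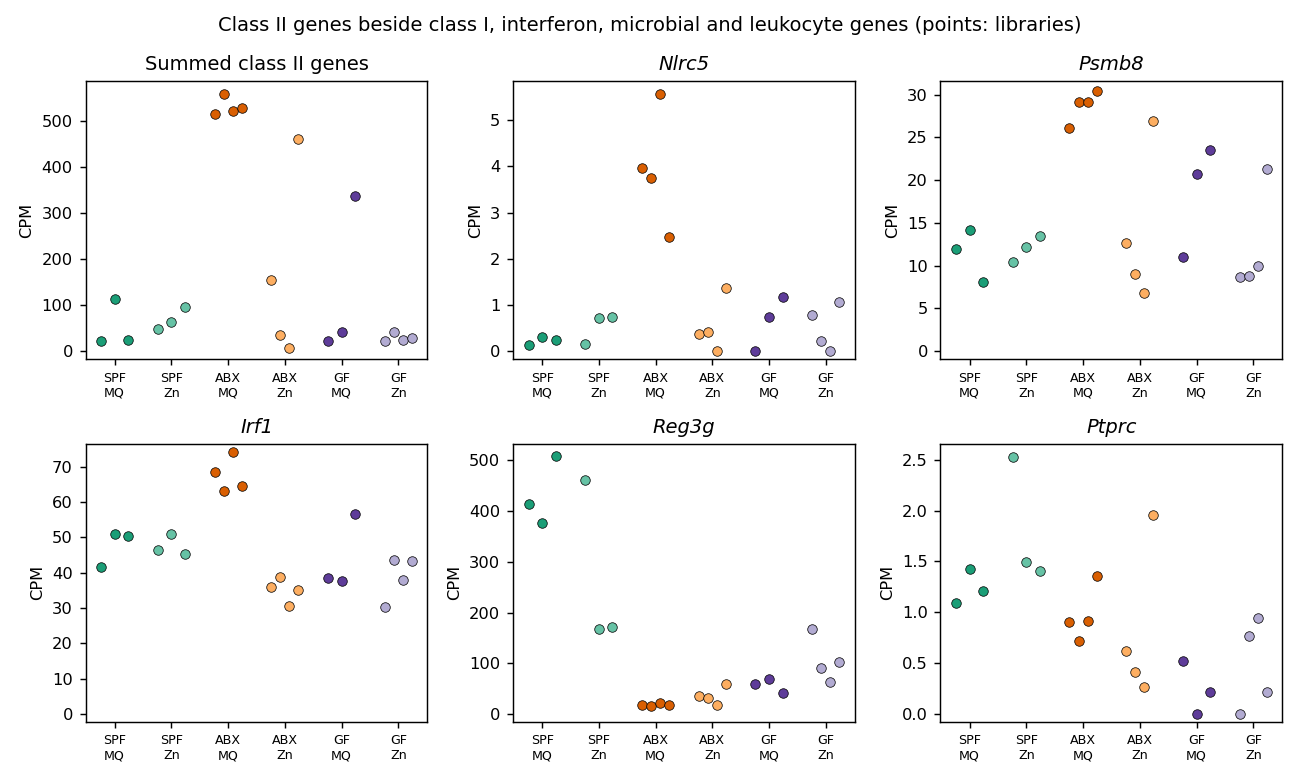
CPM (vertical axes) of the summed class II genes and of Nlrc5, Psmb8, Irf1, Reg3g and Ptprc in each library, arranged by group (horizontal axes). Nlrc5, Psmb8 and Irf1 are highest in antibiotics mice on Milli-Q water as the class II genes are, while Reg3g is highest in SPF mice and Ptprc stays under 3 CPM.

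The input from interferon gamma was covered by 8 genes of the receptor, its kinases and its transcription factors. Irf1, a transcription factor downstream of interferon gamma, stood at 63.0 to 74.3 CPM in antibiotics mice on Milli-Q water and at 30.5 to 38.7 CPM in antibiotics mice on zinc water. It decreased by 0.95 ± 0.13 on the log2 scale between them (SE, edgeR adjusted p = 0.000789) and was the only one of the 8 called, where 11.5% of all genes were lower. Its r with the class II genes was 0.711 over 21 libraries and 0.567 with group means removed. Antibiotics zinc replicate 4, with high class II genes, held 35.0 CPM of Irf1. Between antibiotics and SPF mice on Milli-Q water 0 of the 8 passed, with Irf1 at 0.50 ± 0.14 (SE, edgeR adjusted p = 0.215). Only 26 of all 13070 genes passed there. Ifng itself had 0 counts in every library of these sorted cells. Whether interferon gamma had a part in the class II level was not tested.

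Factors that dock on class II promoters were covered by 7 genes. After antibiotics, Rfxank and Rfx5 of the RFX complex fell on zinc water by 0.60 ± 0.17 and 0.55 ± 0.18 (log2, SE, edgeR adjusted p = 0.0152 and 0.0382). These were the 2 of 7 called lower, where 11.5% of all genes were. In germ-free against SPF mice, averaged, Rfx5 and the NF-Y subunit Nfya fell by 0.74 ± 0.16 and 0.62 ± 0.16 while Rfxap rose by 0.66 ± 0.17 (SE, edgeR adjusted p = 0.00109, 0.00486 and 0.0047). Of all genes, 14.5% fell and 16.2% rose in that comparison. None of the 7 was called between antibiotics and SPF mice on either water or averaged. With group means removed, r between these factors and the class II genes ran from -0.491 for Nfyc to 0.008 for Nfyb.

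Proteases and reductases of the endolysosome, which prepare peptides and trim the invariant chain, were covered by 7 genes. Between groups they mostly did not follow the set. With group means removed, their r with the class II genes ran from -0.155 for Ifi30 to 0.45 for Ctss, with Lgmn at 0.403, Ctsl at 0.398 and Ctsb at 0.311. Between antibiotics and SPF mice, averaged, the 1 call of 7 was the protease Lgmn, which fell by 0.65 ± 0.17 (log2, SE, edgeR adjusted p = 0.0334), where 2.22% of all genes were called lower. In germ-free against SPF mice, averaged, 4 of 7 rose, where 16.2% of all genes did, led by the protease Ctsd at 0.85 ± 0.10, Ctsl at 0.58 ± 0.16 and the thiol reductase Ifi30 at 0.48 ± 0.10 (SE, edgeR adjusted p up to 0.00777). Against antibiotics mice on Milli-Q water 5 of the 7 were higher in germ-free mice, where 12.5% of all genes were, with Ctsd at 1.00, Ctsl at 0.93 and Lgmn at 0.75 (log2), while 4 class II genes were lower. Ctss, which cleaves the invariant chain, stood at 10.7 to 13.3 CPM in antibiotics mice on Milli-Q water and at 9.09 to 16.2 CPM in SPF mice on that water. Of 8 genes for class II turnover and costimulation 4 passed the filter. Icosl, a ligand for T cells, fell on zinc water after antibiotics by 0.74 ± 0.26 (SE, edgeR adjusted p = 0.0436), where 11.5% of all genes did. Cd83 rose in germ-free against SPF mice, averaged, by 0.64 ± 0.18 (SE, edgeR adjusted p = 0.0103), where 16.2% of all genes did. Cd86 had 0 counts.

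Dendritic cells, macrophages and B cells express class II genes strongly, so their markers were read in the same libraries. Of 11 dendritic cell and macrophage markers 8 had under 10 counts in every library, and Flt3, Xcr1, Csf1r and Cd209a had 0 throughout. Their summed level was carried by Lyz2 and in 1 library by C1qa. On Milli-Q water it was 4.01 to 12.5 CPM in antibiotics mice, 5.75 to 12.5 in SPF mice and 8.73 to 10.6 in germ-free mice. On zinc water it was 3.34 to 9.17, 5.19 to 7.75 and 8.29 to 19.0 CPM in the same order. Of 4 B cell markers Cd79b had at most 11 counts. The sum of the 4 was 0.24 to 0.651 CPM in antibiotics and 0.204 to 0.29 CPM in SPF libraries on Milli-Q water. Of 8 T cell and innate lymphocyte markers 7 stayed under 10 counts, and they summed to at most 1.47 CPM.

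The pan-leukocyte gene Ptprc, which encodes the CD45 used to exclude cells in the gate, had 11 to 28 counts in antibiotics and 16 to 28 in SPF mice on Milli-Q water, and differed between them by -0.34 ± 0.58 (log2, SE, edgeR adjusted p = 0.9). In antibiotics mice on zinc water Ptprc had 10, 8, 4 and 30 counts in replicates 1 to 4, in the order of their class II sums. The leukocyte gene Rac2 had 21, 73, 9 and 30 counts in these libraries, in another order. In germ-free mice Ptprc had 0 to 4 counts on Milli-Q water and 0 to 8 on zinc water. Ptprc was lower there than in SPF mice, by -2.03 ± 0.53 averaged over waters (log2, SE, edgeR adjusted p = 0.00606) and by -2.27 ± 0.83 on Milli-Q water (edgeR adjusted p = 0.0496). Against antibiotics mice on Milli-Q water, where 4 class II genes were lower in germ-free mice, Ptprc differed by -1.93 ± 0.82 (SE, edgeR adjusted p = 0.093). The 6 leukocyte markers summed to 3.31 to 6.28 CPM in antibiotics mice on Milli-Q water, 3.41 to 6.33 in SPF mice on that water, 0.876 to 4.48 in antibiotics mice on zinc water and 1.53 to 3.76 in germ-free mice. With group means removed, the macrophage gene C1qa had an r of 0.458 with the class II genes, Ptprc of 0.448, Rac2 of 0.103 and Lyz2 of 0.02. C1qa held 141 counts in SPF Milli-Q replicate 2 and 13 in antibiotics zinc replicate 4, the highest libraries of their groups for class II, and 27 in antibiotics Milli-Q replicate 4. Germ-free Milli-Q replicate 3, the highest of its group for class II, had 0 counts of C1qa and 2 of Ptprc. Antibiotics zinc replicate 3, the lowest library for class II, was also the lowest of the series for this sum. Whether the residual leukocyte RNA had a part in the class II level was not tested. In bulk libraries, fewer cells of a type and less RNA per cell cannot be told apart.

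Markers of other epithelial cells moved across groups too. The 6 goblet cell markers summed to 3550 to 4610 CPM in antibiotics mice on Milli-Q water, 2050 to 4080 in SPF mice and 4230 to 5520 in germ-free mice on that water, and 3150 to 5050 in antibiotics mice on zinc water. The 3 tuft cell markers summed to 124 to 235 CPM in antibiotics and 122 to 160 CPM in SPF libraries on Milli-Q water, and the 7 enterocyte markers to 219 to 273 and 309 to 487 CPM. Germ-free libraries on that water held 65.4 to 87.3 CPM of the tuft cell markers, below each antibiotics library, and 252 to 839 CPM of the enterocyte markers. The 3 enteroendocrine markers summed to 39.2 to 125 CPM in antibiotics mice, 72.9 to 154 in SPF mice and 19.5 to 28.7 in germ-free mice on Milli-Q water, and germ-free replicate 3, with high class II genes, was the lowest of these. The 6 Paneth cell markers went the other way, at 176000 to 276000 CPM in antibiotics mice, 211000 to 329000 in SPF mice and 661000 to 671000 in germ-free mice on Milli-Q water. CPM is on the TMM scale here, so these values are not shares of the library total. The summed raw counts, not scaled for depth, overlapped at 3520000 to 5740000, 4130000 to 5140000 and 4470000 to 6260000 in the same order. The stem cell marker Lgr5 had the lowest r with the class II genes among the markers once group means were removed, at -0.728. The rest of the 6 stem and cycling markers did not share this, with r from -0.162 to 0.16. The part of these epithelial markers in the class II result was not tested.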

How the data were processed

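RNA-seq was read from 21 libraries of sorted Paneth cells in 6 groups. The authors deposited 1 table of whole-number counts per gene for 55414 Ensembl identifiers, with no normalisation. Per the labels' processing notes they used FastQC 0.12.0, STAR 2.7.0a, DESeq2 and mm39, and the study's methods add a stranded mRNA kit. The counting tool, its strand setting and its treatment of reads that map to several places are not given in the sources used here. Column names gave each column its sample, and 0 columns were left without one. Germ-free Milli-Q columns carry other replicate numbers than the titles, and the titles were followed.

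Symbols, lengths and positions came from GENCODE M39 (GRCm39) and promoter windows from RefSeq. Counts were fitted in edgeR 4.0.16 (limma 3.58.1, R 4.3.3) by the quasi-likelihood test with 1 coefficient per group over all 21 libraries, TMM scaling and filterByExpr, which kept 13070 genes (common dispersion 0.0369, prior df 8.52). Log2 CPM used a prior count of 2. P-values were Benjamini-Hochberg adjusted over all genes kept, with a threshold of 0.05, for 13 comparisons. Tests were checked on simulated data. Named members were all 7 class II genes, and from each pathway list up to 3 of the called genes with the largest fold changes were named. Genes named outside that rule (Ctss, Irf1 where not called, H2-K1, H2-D1, Ptprc, Lgr5) were chosen after their values were seen. Some genes of the lists and of the likeness ranking are not reported here. The members and lists were chosen with earlier results of these data known. Alternatives were size factors, library totals, TMM without Defa genes, limma-voom with quality weights, DESeq2 1.42.0, all genes unfiltered, at least 10 counts in 10 libraries, a replicate block, only the groups compared, and each library left out. Leaving out SPF Milli-Q replicate 2 and germ-free Milli-Q replicate 3 together was added after the data were seen. Library totals of 9888174 to 16896714 counts limit precision for Ciita and H2-DMb1 outside the antibiotics Milli-Q group, with as few as 0 to 6 counts a library. Antibiotics zinc replicate 3 held 4 counts of Ciita and 9 of H2-DMb1. Figures were drawn with matplotlib 3.10.9.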

Additional observations from a re-analysis of the deposited data

Results flagged for a closer look

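H2-DMa in antibiotics-treated mice on Milli-Q water stood at 13.1 CPM in replicate 3, below 17.3 to 17.8 CPM in the other 3 libraries of that group. The gap to the nearest library was 0.903 of the range of the group, which is what singled it out. Of 21 sets of libraries examined (7 genes in the 3 groups of 4) this was the 1 singled out, and chance alone singles out about 1 in 20. The same library was the highest of its group for Ciita.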

How the results depend on the processing

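No called class II gene changed sign in any of 402 alternative values, and 324 kept the call. Among values of genes that were not called, 95 of 2414 changed sign, 45 of them in germ-free against SPF mice averaged over waters. The numbers of class II genes called moved as follows. With library totals only, 2 were called for zinc after antibiotics, 7 for germ-free against antibiotics on each water and 1 for germ-free against SPF on zinc water and averaged. That scaling moved the median of all genes by up to -1.054 (germ-free against antibiotics on Milli-Q water) and by -0.988 for germ-free against SPF on Milli-Q water, so germ-free differences are relative to the TMM scale. DESeq2 called 2 for antibiotics against SPF on Milli-Q water and 4 for germ-free against antibiotics on zinc water. Limma-voom called 2, 0, 7 and 2 for antibiotics against SPF on Milli-Q water, germ-free against antibiotics on zinc water, zinc after antibiotics and its difference from SPF mice. Without a filter, 7 were called for antibiotics against SPF on each water, germ-free against antibiotics on each water and zinc after antibiotics. The same setting called 6 for zinc in germ-free mice, 5 for germ-free against SPF on each water, 1 for that comparison averaged and 5 for each difference of zinc effects. In that fit of 24548 genes the prior df was infinite (8.52 otherwise) and SEs were 0.12 to 0.65 (0.41 to 1.69 otherwise). With only the groups compared, 7 were called for antibiotics against SPF and for germ-free against antibiotics on Milli-Q water, 0 for the latter on zinc water and 3 for zinc after antibiotics. H2-DMb1 and Ciita could not be fitted in some germ-free comparisons of that kind. Without SPF Milli-Q replicate 2 and germ-free Milli-Q replicate 3, chosen after seeing the data, the calls were 4 for antibiotics against SPF on Milli-Q water, 7 and 5 for germ-free against antibiotics on Milli-Q and zinc water and 3 for zinc after antibiotics. Size factors, TMM without Defa genes and the stricter filter moved no count by over 1.5 times.

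Leaving out each library in turn, calls ranged from 0 to 7 for zinc after antibiotics and for germ-free against antibiotics on each water, from 1 to 7 for antibiotics against SPF averaged, from 0 to 2 for it on Milli-Q water, and from 0 to 1 for zinc in germ-free mice and for germ-free against SPF averaged. The other comparisons stayed at 0. With the replicate block the calls were 1 for antibiotics against SPF averaged, 2 and 1 for germ-free against antibiotics on Milli-Q and zinc water and 2 for zinc after antibiotics. The replicate numbers were not found to pair libraries, since over 48 same-numbered pairs the correlation of deviations ran from -0.386 to 0.229, 7 pairs exceeded 0.1 and 2 of 21 libraries correlated best with their own number.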
